A study of Mus musculus with 6 samples.

Results

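The genes described here are the antioxidant genes of the NRF2, peroxiredoxin, thioredoxin and glutathione systems in E0771 cells, a mouse breast carcinoma cell line, with and without knockdown of lamin A/C (*Lmna*). They were chosen as a list of 50 gene symbols by function, with earlier results of these data known. The symbols were matched exactly to those of the UMI count table. Of the 50, 45 were among its 10520 genes and 42 of the 8969 genes that passed the filter on low counts. *Slc7a11*, *Gpx7*, *Gstm5*, *Sod2* and *Tkt* were not analysed here. The libraries were made by MARS-seq, a method that sequences polyadenylated transcripts at their 3′ end and uses a unique molecular identifier (UMI) to count each captured molecule once. There were 6 libraries. In the shControl group, 3 libraries came from cells that carried the empty pLKO.5-puro lentiviral vector. In the shLmna group, 3 libraries came from cells that carried a lentiviral vector with an shRNA against lamin A/C. Both groups had been transduced and selected with puromycin at 3 µg/ml, and only a single shRNA construct was sequenced, named shRNA4 in the titles of the knockdown libraries. The cells were read in bulk, so fewer cells expressing a gene and less RNA per cell cannot be told apart. Nothing in the labels says whether replicates were separate cultures, so the p-values measure only the spread between these libraries, which may be technical.

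The libraries held 1846208 to 3242051 UMIs. The shControl libraries stood at plate positions 13 to 15 and the shLmna libraries at positions 16 to 18, and plate position cannot be told apart from the knockdown. *Lmna* had normalized counts of 2013, 2170 and 2325 in shControl and 964, 933 and 942 in shLmna, 2.29-fold lower in shLmna (log2 fold change -1.20, standard error 0.13, adjusted p = 3.55e-05). A normalized count is a UMI count scaled to the mean effective library size of 2484251, and values are listed in the order of replicates 1, 2 and 3. Of 12 epithelial markers 5 had a row (*Cdh1* and 6 others had no row in the table used here), 4 were tested and none was called. The summed normalized counts of the 5 were 709.2 to 851.5 in shControl and 759.6 to 853.8 in shLmna. Most of this sum was the keratin gene *Krt8* (means 686.5 and 721.8), so it says little about the others. *Epcam* was lower in every shLmna library (log2 fold change -0.90, adjusted p = 0.0909). With overlapping groups, *Krt18* was at -0.53, *Krt8* at 0.074 and *Erbb2* at 0.37. The sum over 5 of 8 fibroblast markers was 46.1 to 46.8 in shControl and 78.4 to 92.5 in shLmna, with *Col3a1* and *Pdgfrb* higher. *Col3a1* had 0, 0 and 0 UMIs in shControl and 13, 12 and 12 in shLmna. It passed the filter on low counts only through shLmna, the group where it was high, so its call is a description. Over 4 of 9 leukocyte markers it was 104.2 to 117.3 in shControl and 83.0 to 89.8 in shLmna, with *Lyz2* higher and *Cd14* lower. The only endothelial marker of 5 with a row, *Pecam1*, was at 1.55 to 7.91 in shControl and 1.86 to 5.28 in shLmna. The part of these markers in the results given here was not tested.

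NRF2, encoded by *Nfe2l2*, is a transcription factor that KEAP1 holds in the cytoplasm and hands to the proteasome. Oxidants and electrophiles modify KEAP1, and the NRF2 that is then spared pairs with small MAF proteins and binds antioxidant response elements in genes for glutathione synthesis, thioredoxin reduction, NADPH supply and detoxification. Peroxiredoxins remove hydrogen peroxide and are recycled by thioredoxin, while glutathione peroxidases and glutathione S-transferases draw on glutathione. In tumour cells this network is known for its part in survival under oxidative stress and in drug resistance.

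The antioxidant genes did not move as a block between shControl and shLmna. The peroxiredoxin gene *Prdx1*, the sulfiredoxin gene *Srxn1*, the aldo-keto reductase gene *Akr1b8* and *Osgin1*, a stress-induced growth inhibitor, fell, by 3.18-fold, 1.58-fold, 1.75-fold and 1.85-fold. The glutathione S-transferase genes *Gsta4* and *Mgst3*, the glutaredoxin gene *Glrx* and *Oxr1*, which protects cells against oxidative damage, rose by 1.89-fold, 2.08-fold, 1.57-fold and 2.07-fold. The other 34 tested genes of the list were not called, *Nfe2l2* and *Keap1* among them. A gene was called where edgeR's quasi-likelihood test gave a Benjamini-Hochberg adjusted p below 0.05 over all 8969 genes tested.

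The 8 called genes were 19.0% of the 42 tested, 4 higher and 4 lower in shLmna, beside 13.7% of all tested genes (7.96% higher and 5.78% lower, or 714 and 518 genes, which became 662 and 730 with a correction of each library for its trend with GC content and the replicate number as a block together). None of the 8 passed the filter on low counts through 1 group alone. The calls over all genes moved with the library left out, and so did the 8. They became 5 without shControl replicate 1 (794 of all genes), 5 without shControl replicate 2 (540) and 5 without shLmna replicate 3 (651). They were 6 without shLmna replicate 1 (866), 8 without shLmna replicate 2 (757) and 14 without shControl replicate 3 (1580). Groups did not overlap for 19 of the 42, 11 higher and 8 lower, against 32.5% of all genes. With a mean normalized count above 5 and an absolute log2 fold change above 1 required as well, as the study's methods did, 3 of the 42 passed (*Prdx1*, *Mgst3* and *Oxr1*), against 5.71% of all genes, and the 3 became 0 without shLmna replicate 3, 1 without shControl replicate 1 or 2 or shLmna replicate 1, and 5 without shControl replicate 3 or shLmna replicate 2. The median log2 fold change of the 42 was -0.011, with 21 above and 21 below 0 and 31 within 0.5 of it, and that of all genes was 0.0033. An unadjusted p below 0.05 was reached by 17 of the 42, against 28.4% of all genes.

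**Figure D1:**
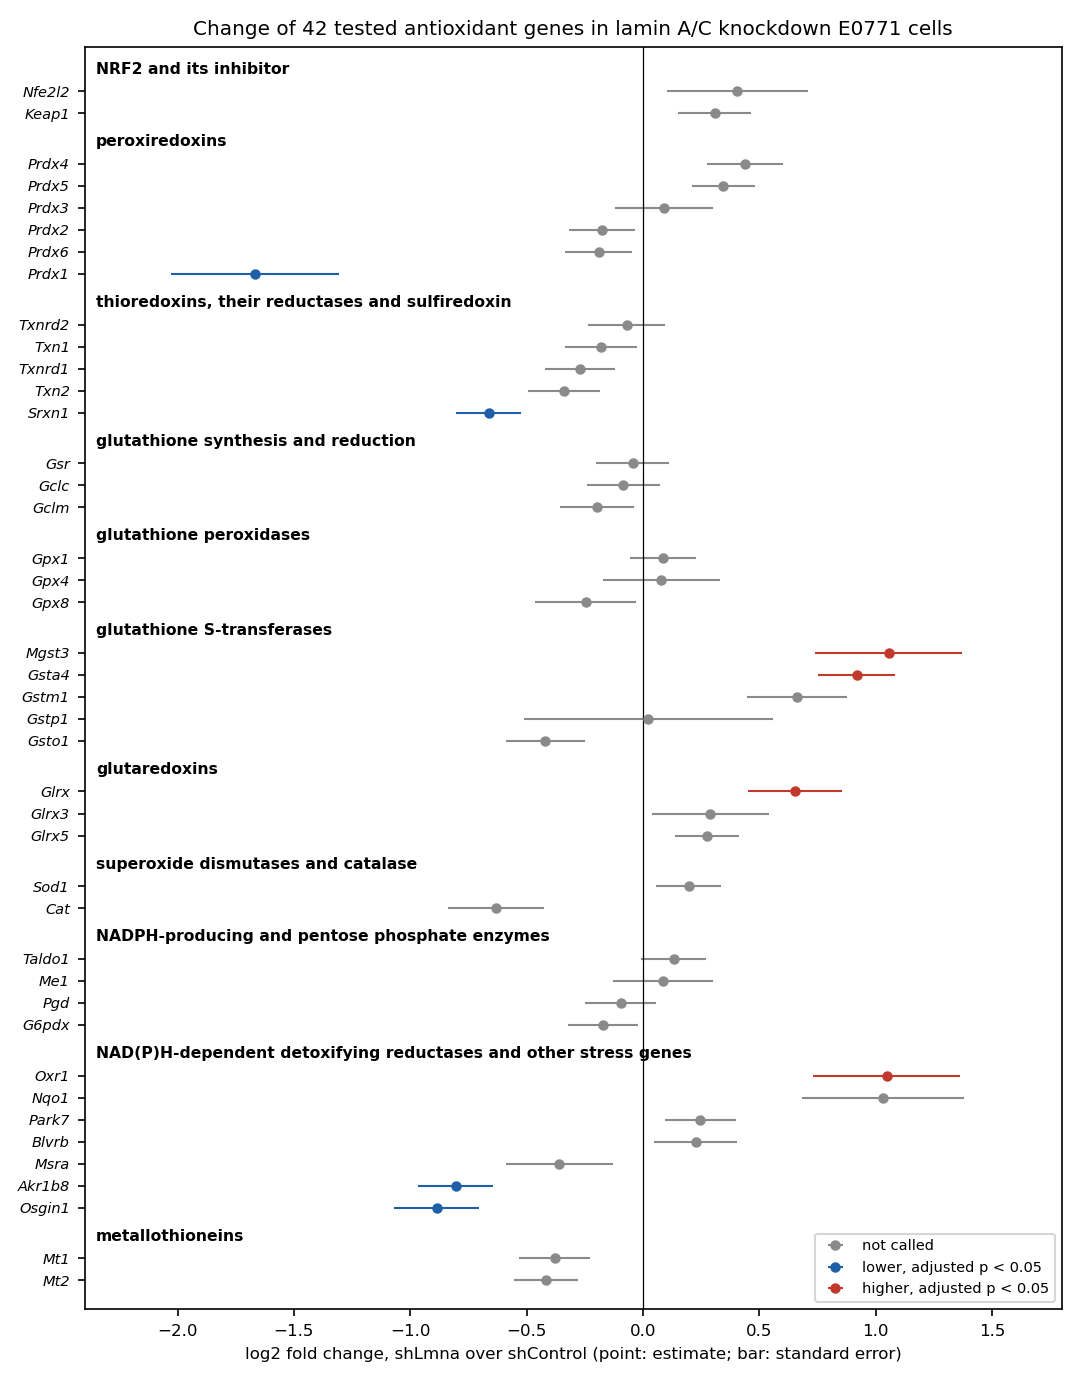
Log2 fold change of each of the 42 tested antioxidant genes, shLmna over shControl (x axis, points with standard errors), grouped by role. Red and blue points are the 4 higher and 4 lower called genes, grey points the other 34, and the estimates span -1.67 to 1.06 around 0.

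Neither *Nfe2l2* nor *Keap1* was called. In the further list described below, 3 of 8 tested genes of NRF2 partners, competitors and degradation were called (37.5%, beside 13.7% of all genes). *Nfe2l1* was higher (log2 fold change 0.58, adjusted p = 0.0129), *Mafk* and *Sqstm1* were lower, and the other 5 were not called. *Nfe2l2* had normalized counts of 54.6, 56.7 and 100.2 in shControl and 77.3, 136 and 56.8 in shLmna, and the groups overlapped (log2 fold change 0.41, standard error 0.30, adjusted p = 0.411). Its highest library was shLmna replicate 2, and without it the estimate turned to -0.024, adjusted p = 0.976. *Keap1* had normalized counts of 194, 205 and 183 in shControl and 280.2, 219.8 and 221 in shLmna, so that every shLmna library lay above the shControl libraries (log2 fold change 0.31, standard error 0.16, adjusted p = 0.214). The counted 3′ end of *Keap1* overlaps *Gm16754* on the other strand, and whether the counting kept strands apart is not given in the sources used here.

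Of the 6 peroxiredoxin genes, 1 fell, none rose and 5 were not called (16.7% called, beside 13.7% of all genes). *Prdx1* encodes a cytosolic 2-cysteine peroxiredoxin (chr4:116685544-116700822 in mm10). *Prdx1* had normalized counts of 194, 119.6 and 84.4 in shControl and 29.8, 71.1 and 21.1 in shLmna, a change from 133 ± 55.9 (SD, n = 3) to 40.7 ± 26.7 (SD, n = 3) (log2 fold change -1.67, standard error 0.36, adjusted p = 0.00713). Every shLmna library lay under every shControl library, although both groups spread widely and shLmna replicate 2 came closest to the controls. Without shLmna replicate 3 the call was lost (-1.40, adjusted p = 0.0589), and without shLmna replicate 2 the log2 fold change was -2.36. The other 5 peroxiredoxin genes had log2 fold changes of -0.19 to 0.44.

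*Prdx2*, the partner of *Prdx1* in the cytosol, had normalized counts of 1516, 1905 and 1452 in shControl and 1443, 1380 and 1489 in shLmna (log2 fold change -0.18, standard error 0.14, adjusted p = 0.446). *Prdx3* had normalized counts of 507, 529.8 and 336 in shControl and 475, 353 and 646 in shLmna, overlapping groups for this mitochondrial enzyme (log2 fold change 0.091, standard error 0.21, adjusted p = 0.830), and the estimate was -0.093, adjusted p = 0.784 without shControl replicate 3 and -0.15, adjusted p = 0.731 without shLmna replicate 3. The pair of genes that follows showed the opposite order to *Prdx1*, with all shLmna libraries above all shControl libraries, but neither was called. *Prdx4* had normalized counts of 181, 214 and 268 in shControl and 280.2, 317 and 295 in shLmna, for an enzyme of the endoplasmic reticulum (log2 fold change 0.44, standard error 0.16, adjusted p = 0.0918), which was called only without shControl replicate 3 (0.58, adjusted p = 0.0207). *Prdx5* had normalized counts of 490.1, 494 and 472 in shControl and 679.7, 555 and 616 in shLmna (log2 fold change 0.34, standard error 0.14, adjusted p = 0.109). *Prdx6*, the 1-cysteine member that uses glutathione, had normalized counts of 488, 465 and 374 in shControl and 403, 376 and 387 in shLmna, with overlap between groups (log2 fold change -0.19, standard error 0.14, adjusted p = 0.420). The counted end of *Prdx2* overlaps *Junb* and that of *Prdx5* overlaps *Trmt112*, both on the other strand, and 11.7% of the 50-base words of the *Prdx2* end also occur in another gene, so those values are uncertain.

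*Srxn1*, whose product repairs overoxidized peroxiredoxins, was the only called gene of the thioredoxin group (chr2:152105516-152111376). *Srxn1* had normalized counts of 365, 383 and 345 in shControl and 243, 231 and 217 in shLmna, a change from 364 ± 18.8 (SD, n = 3) to 230.1 ± 13.2 (SD, n = 3) (log2 fold change -0.66, standard error 0.14, adjusted p = 0.00613). The groups lay far apart relative to their spread, and the call held in every alternative. The thioredoxin genes, whose products hand electrons to peroxiredoxins, and their reductases were not called, with log2 fold changes (given with ± 1 standard error here and for the genes named after them) of -0.18 ± 0.16 for *Txn1*, -0.34 ± 0.15 for *Txn2*, -0.27 ± 0.15 for *Txnrd1* and -0.071 ± 0.17 for *Txnrd2*. All shLmna libraries were lower for *Txnrd1* and groups overlapped for the others. *Txn2* was called only without shControl replicate 3 (-0.46, adjusted p = 0.0491), and *Txnrd2* turned to 0.013, adjusted p = 0.981 without shControl replicate 1. A share of 2.63% of the 50-base words of the *Txn1* end occurs in another gene.

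*Akr1b8* and *Osgin1* completed the genes that fell. *Akr1b8* reduces aldehydes with NADPH (chr6:34354119-34368463). *Akr1b8* had normalized counts of 619, 815 and 536 in shControl and 387, 365 and 379 in shLmna, a change from 657 ± 143 (SD, n = 3) to 377 ± 11.4 (SD, n = 3) (log2 fold change -0.80, standard error 0.16, adjusted p = 0.00444). The shLmna libraries were close together and the shControl libraries spread more, with replicate 2 highest. The aldo-keto reductase genes *Akr1b7* and *Akr1b10* and the gene model *Gm5649* share 50-base words with it (4.42% of its counted end), so reads could be split between them. *Osgin1* is known as a target of NRF2 (chr8:119434124-119446256). *Osgin1* had normalized counts of 110.1, 107 and 104 in shControl and 61.4, 52.0 and 60.8 in shLmna, a change from 107 ± 2.99 (SD, n = 3) to 58.1 ± 5.28 (SD, n = 3) (log2 fold change -0.89, standard error 0.18, adjusted p = 0.00532). Neither group spread by more than a few counts, and both calls held in every alternative.

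The promoters of the 4 genes that fell are shown because antioxidant response elements are the sites NRF2 binds. The core of that element, TGACNNNGC, was searched on both strands of RefSeq promoter windows (GRCm38.p6, which has the coordinates of mm10), 300 bases from 250 before to 50 after each start. It occurred in 12.4% of all 32851 windows and in 11 of the 52 windows (21.2%) of the 38 measured members that had one; these 11 windows belonged to *G6pdx*, *Gclm*, *Me1*, *Mgst1*, *Mt2*, *Nfe2l2*, *Pgd*, *Prdx1*, *Sod1*, *Srxn1* and *Txnrd1*. *Prdx6*, *Gclc*, *Gsr*, *Gsta4*, *Gstt2*, *Oxr1* and *Msra* had no entry. Capitals mark a match, which lies on the minus strand in both cases and starts at base -133 from the start of *Prdx1* and at base 29 of *Srxn1*. The windows of *Akr1b8* and *Osgin1* hold no match, and that of *Osgin1* lies inside the gene as GENCODE draws it. A match is a description of letters and not of binding.
Prdx1 (chr4:116685349-116685648, plus strand): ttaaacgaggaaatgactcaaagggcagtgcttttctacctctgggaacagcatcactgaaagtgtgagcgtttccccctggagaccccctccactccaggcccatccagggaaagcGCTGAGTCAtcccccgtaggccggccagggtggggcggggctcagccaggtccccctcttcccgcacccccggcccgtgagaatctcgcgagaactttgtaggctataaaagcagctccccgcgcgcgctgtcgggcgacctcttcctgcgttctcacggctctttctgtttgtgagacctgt
Srxn1 (chr2:152105274-152105573, plus strand): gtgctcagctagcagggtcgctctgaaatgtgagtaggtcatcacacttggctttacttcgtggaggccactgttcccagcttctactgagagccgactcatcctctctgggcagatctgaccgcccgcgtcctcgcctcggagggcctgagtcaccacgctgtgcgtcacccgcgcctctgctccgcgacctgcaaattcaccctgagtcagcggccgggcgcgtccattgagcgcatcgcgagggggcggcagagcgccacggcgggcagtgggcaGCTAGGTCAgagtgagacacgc
Akr1b8 (chr6:34353896-34354195, plus strand): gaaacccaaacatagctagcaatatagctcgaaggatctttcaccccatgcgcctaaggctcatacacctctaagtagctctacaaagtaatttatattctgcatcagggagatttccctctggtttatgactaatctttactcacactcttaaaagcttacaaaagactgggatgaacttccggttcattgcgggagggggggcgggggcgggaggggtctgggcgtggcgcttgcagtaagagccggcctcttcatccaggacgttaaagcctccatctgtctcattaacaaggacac
Osgin1 (chr8:119436897-119437196, plus strand): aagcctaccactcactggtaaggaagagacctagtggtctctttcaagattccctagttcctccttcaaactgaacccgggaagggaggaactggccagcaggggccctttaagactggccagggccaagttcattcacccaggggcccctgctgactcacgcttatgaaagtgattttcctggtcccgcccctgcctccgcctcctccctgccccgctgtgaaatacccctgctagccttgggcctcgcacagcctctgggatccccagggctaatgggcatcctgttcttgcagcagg

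No tested gene of glutathione synthesis and recycling in the list of 50 (*Gclc*, *Gclm* and *Gsr*) was called. Other glutathione genes, some of them called, belong to the further list described below. *Gclc* and *Gclm* encode the catalytic and modifier subunits of glutamate-cysteine ligase, the rate-limiting step, and are usual readouts of NRF2. *Gclc* had normalized counts of 203, 236 and 239.9 in shControl and 196, 245 and 197 in shLmna (log2 fold change -0.086, standard error 0.16, adjusted p = 0.773), and *Gclm* had normalized counts of 395, 478 and 596 in shControl and 412, 449.6 and 413 in shLmna (log2 fold change -0.20, standard error 0.16, adjusted p = 0.445). Groups overlapped for both. The counted end of *Gclc* is poor in GC (35.9%), and a correction for GC content put it lower in shLmna (-0.47, adjusted p = 0.0368). The glutathione reductase gene *Gsr* had a log2 fold change of -0.045 ± 0.16. The glutathione peroxidase genes had values of 0.086 ± 0.14 (*Gpx1*, cytosolic), 0.078 ± 0.25 (*Gpx4*, which reduces lipid peroxides) and -0.25 ± 0.22 (*Gpx8*, of the endoplasmic reticulum), with overlapping groups. *Gpx4* shares 61.7% of its 50-base words with other genes, pseudogenes included, and its estimate turned to -0.13, -0.015 and -0.17 without shControl replicate 1, shControl replicate 2 and shLmna replicate 2.

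Among 7 glutathione S-transferase genes of the list of 50 with counts, 5 were tested, of which 2 rose, none fell and 3 were not called. The share called was 40.0%, beside 13.7% of all genes, but it rests on 5 genes, and the call of *Mgst3* was lost in several alternatives given below. In the further list described below, *Gstm2* (log2 fold change 1.72), *Gstt3* (0.92, adjusted p = 0.0129) and *Mgst2* (0.69, adjusted p = 0.0330) were called higher. *Gstk1* (-0.77, adjusted p = 0.0464) was called lower, with overlapping groups. The other transferase genes tested in that list were not called. The counted end of *Gstt3* overlaps *Gm20441* on the same strand, and 5.89% of its 50-base words occur in that gene. Values of *Gstt3*, *Mgst2* and *Gstk1* under the alternatives are not given here. *Gsta4* encodes the enzyme that conjugates 4-hydroxynonenal, a product of lipid peroxidation (chr9:78182774-78209349). *Gsta4* had normalized counts of 259, 252 and 333 in shControl and 501, 462 and 630.1 in shLmna, a change from 282 ± 45.0 (SD, n = 3) to 531 ± 87.9 (SD, n = 3) (log2 fold change 0.92, standard error 0.16, adjusted p = 0.00213). Each shLmna library lay above each shControl library, replicate 3 was highest in both groups, and the call held in every alternative. *Mgst3* encodes a membrane-bound transferase and peroxidase (chr1:167371966-167393841). *Mgst3* had normalized counts of 21.4, 10.9 and 26.4 in shControl and 43.8, 32.8 and 41.0 in shLmna, a change from 19.6 ± 7.91 (SD, n = 3) to 39.2 ± 5.67 (SD, n = 3) (log2 fold change 1.06, standard error 0.32, adjusted p = 0.0375). The call was lost with DESeq2 (1.04, adjusted p = 0.0684) and with all libraries thinned to the size of the smallest (0.86, adjusted p = 0.0685). It was also lost without shControl replicate 1 (1.16, adjusted p = 0.0629), shControl replicate 2 (0.72, adjusted p = 0.198), shLmna replicate 1 (0.94, adjusted p = 0.133) or shLmna replicate 3 (1.02, adjusted p = 0.116).

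The 3 other tested transferase genes of the list of 50, which join glutathione to electrophiles or reduce thiols, were not called. *Gstm1* had a log2 fold change of 0.66 ± 0.21 (adjusted p = 0.0524) with all shLmna libraries higher, and was called without shControl replicate 3 (0.75, adjusted p = 0.0279) or shLmna replicate 3 (0.80, adjusted p = 0.0461) and with GC correction (0.69, adjusted p = 0.0318). It shares 30.0% of its words with other *Gstm* genes and pseudogenes. *Gsto1* had a log2 fold change of -0.42 ± 0.17, and passed only without shControl replicate 3 (-0.54, adjusted p = 0.0324). *Gstp1* had a log2 fold change of 0.023 ± 0.54, shares 62.3% of its words with *Gstp2* and a pseudogene, and changed sign without shControl replicate 1 (-0.34), shControl replicate 2 (-0.32) or shLmna replicate 2 (-0.72). *Mgst1*, which the filter on low counts left out, had 0, 0 and 5 UMIs in shControl and 7, 16 and 12 in shLmna. It was not called when tested with no filter (adjusted p = 0.0585). It passed the filter and was called without shControl replicate 3, the 1 shControl library with UMIs of *Mgst1*, but it entered that fit only through shLmna, so the call is no support for a difference. *Gstt2*, also left out, had 14, 12 and 3 UMIs in shControl and 11, 4 and 3 in shLmna, and was not called in any alternative that tested it.

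*Glrx*, which encodes the glutaredoxin that removes glutathione from protein thiols in the cytosol, was the 1 called gene of the glutaredoxins (chr13:75839868-75850154). *Glrx* had normalized counts of 269.9, 291 and 204 in shControl and 305, 368 and 542 in shLmna, a change from 255 ± 45.3 (SD, n = 3) to 405 ± 122 (SD, n = 3) (log2 fold change 0.65, standard error 0.20, adjusted p = 0.0442). The groups did not overlap, but the shLmna libraries ranged widely. Of the fits without 1 library, the call held when shLmna replicate 1 was left out and was lost when any other was (adjusted p = 0.0767, 0.0951 and 0.0829 without shControl replicates 1 to 3, 0.0617 without shLmna replicate 2 and 0.233 without shLmna replicate 3), with log2 fold changes of 0.40 to 0.76. The call was lost as well with limma-voom (adjusted p = 0.0558), with no filter on low counts (adjusted p = 0.0541), at a mean count of at least 50 (adjusted p = 0.0523) and with the replicate block (adjusted p = 0.0583), and *Glrx* was called in 6 of the 16 alternatives. *Glrx3* and *Glrx5*, monothiol glutaredoxins that handle iron-sulfur clusters, had log2 fold changes of 0.29 ± 0.25 and 0.27 ± 0.14, and *Glrx3* was called only without shControl replicate 3 (0.64, adjusted p = 0.0394). *Glrx2*, left out by the filter, had 7, 2 and 1 UMIs in shControl and 3, 3 and 1 in shLmna, and was not called with no filter (adjusted p = 0.784).

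**Figure D2:**
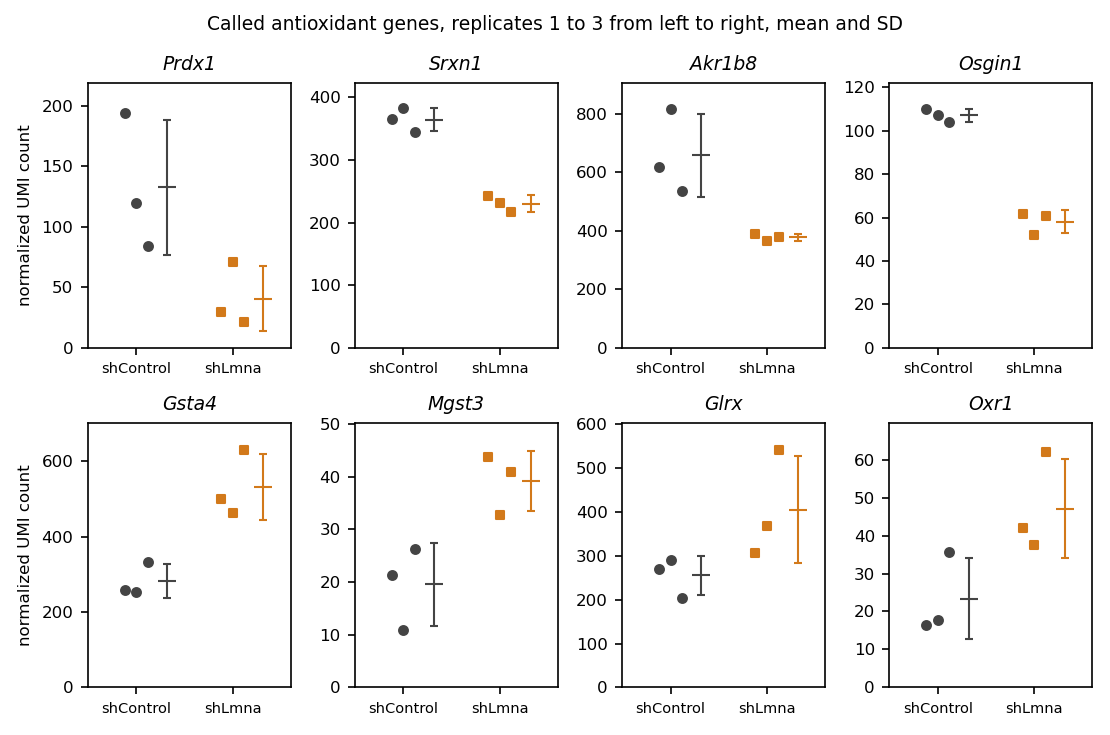
Normalized UMI counts (y axis, from 0) of the 8 called antioxidant genes in the 3 shControl (grey circles) and 3 shLmna (orange squares) libraries, replicates 1 to 3 from left to right, with mean and SD beside them. No shLmna library overlaps the shControl libraries for any of the 8, with *Prdx1*, *Srxn1*, *Akr1b8* and *Osgin1* lower and *Gsta4*, *Mgst3*, *Glrx* and *Oxr1* higher.

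Neither *Sod1*, the copper-zinc superoxide dismutase gene, nor *Cat*, the catalase gene, was called. *Sod1* was at a log2 fold change of 0.20 ± 0.14 with all shLmna libraries higher. *Cat* was at -0.63 ± 0.21 with all shLmna libraries lower (adjusted p = 0.0541), and it passed without shControl replicate 3 (-0.66, adjusted p = 0.0490) and with GC correction (-0.64, adjusted p = 0.0331). The tested genes of the list of 50 that supply NADPH or run the pentose phosphate pathway had overlapping groups and were not called. They were at -0.17 ± 0.15 for *G6pdx* (glucose-6-phosphate dehydrogenase), -0.097 ± 0.15 for *Pgd* (phosphogluconate dehydrogenase), 0.13 ± 0.14 for *Taldo1* (transaldolase) and 0.086 ± 0.21 for *Me1* (malic enzyme). Of 13 other NADPH genes tested in a further list, described below, *Idh1* (1.30, adjusted p = 0.000238), *H6pd* (1.06, adjusted p = 0.00236) and *Idh2* (0.49, adjusted p = 0.0271) were called higher. The other 10 were not called, so the share called was 23.1%, beside 13.7% of all genes. Without shLmna replicate 2, *Pgd* was at 0.032 and *Me1* at -0.11. Other genes share 50-base words with *Sod1* (23.1%), *Taldo1* (12.0%) and *G6pdx* (5.57%).

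Of the 7 detoxifying reductases and other stress genes, 2 fell (*Akr1b8* and *Osgin1*), 1 rose (*Oxr1*) and 4 were not called. The share called was 42.9%, beside 13.7% of all genes, but it rests on 7 genes. *Oxr1* is long and its counted end is AT-rich, with 32.5% GC (chr15:41447482-41861048). *Oxr1* had normalized counts of 16.6, 17.9 and 35.6 in shControl and 41.9, 37.4 and 62.1 in shLmna, a change from 23.3 ± 10.6 (SD, n = 3) to 47.1 ± 13.2 (SD, n = 3) (log2 fold change 1.05, standard error 0.32, adjusted p = 0.0397). The lowest shLmna library was just above the highest shControl library. The GC correction ended the call (0.44, adjusted p = 0.302), and so did DESeq2 (1.03, adjusted p = 0.0530). It was also lost without shControl replicate 1 (0.85, adjusted p = 0.139), shControl replicate 2 (0.87, adjusted p = 0.202), shLmna replicate 1 (1.10, adjusted p = 0.0800) or shLmna replicate 3 (0.82, adjusted p = 0.177). The quinone reductase gene *Nqo1* is the most used readout of NRF2. *Nqo1* had normalized counts of 23.4, 10.9 and 18.5 in shControl and 35.4, 23.7 and 48.9 in shLmna, and the groups were separated by a narrow margin (log2 fold change 1.03, standard error 0.35, adjusted p = 0.0631). It passed without shLmna replicate 2 (1.27, adjusted p = 0.0351) and with GC correction (1.07, adjusted p = 0.0441). *Blvrb* (biliverdin reductase B), *Park7* (a redox-sensitive chaperone) and *Msra* (methionine sulfoxide reductase A) had log2 fold changes of 0.23 ± 0.18, 0.25 ± 0.15 and -0.36 ± 0.23, with overlapping groups.

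The metallothionein genes *Mt1* and *Mt2*, whose cysteine-rich products bind zinc and copper, neighbour each other on chromosome 8. *Mt1* had normalized counts of 13016, 12395 and 11867 in shControl and 10595, 7667 and 10375 in shLmna (log2 fold change -0.38, standard error 0.15, adjusted p = 0.108). *Mt2* had normalized counts of 17650, 17220 and 17632 in shControl and 14438, 11387 and 13483 in shLmna (log2 fold change -0.42, standard error 0.14, adjusted p = 0.0597). All shLmna libraries were lower than all shControl libraries for both genes, with shLmna replicate 2 lowest, but neither was called. *Mt2* passed with DESeq2 (-0.42, adjusted p = 0.0272), with limma-voom (-0.42, adjusted p = 0.0369) and with GC correction (-0.42, adjusted p = 0.0469), and its counted end overlaps *Gm45774* on the other strand.

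**Figure D3:**
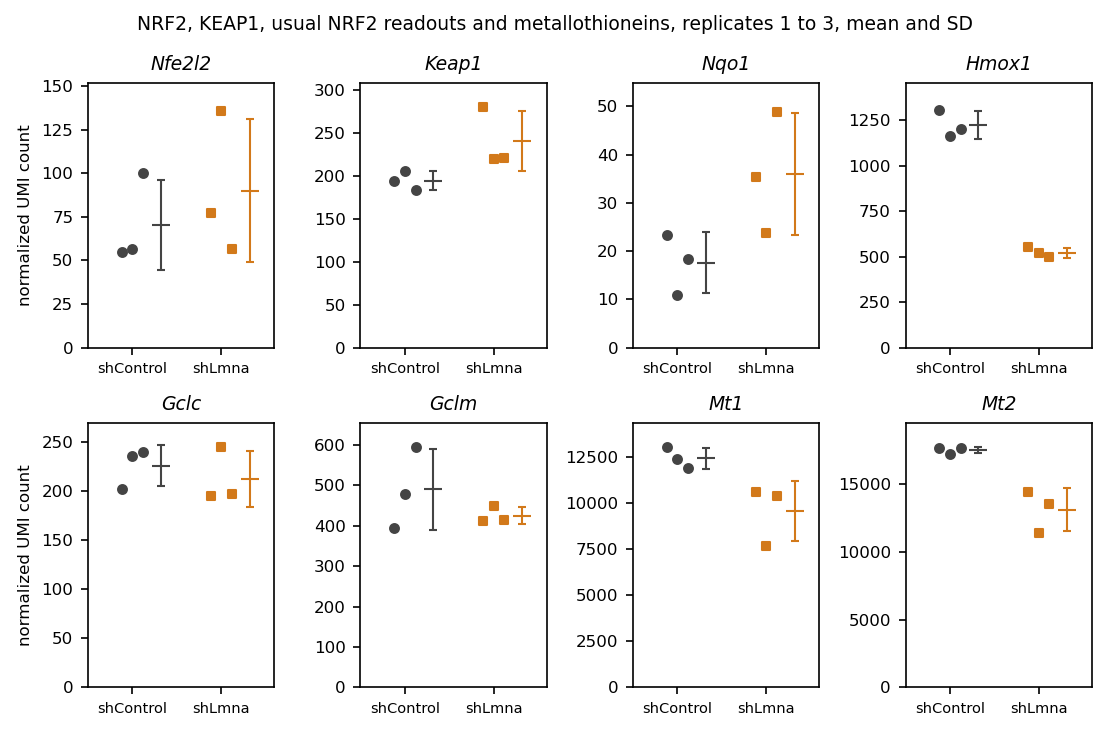
Normalized UMI counts (y axis, from 0) of *Nfe2l2*, *Keap1*, 4 usual NRF2 readouts and both metallothionein genes in the 3 shControl (grey circles) and 3 shLmna (orange squares) libraries, with mean and SD. *Hmox1* is lower and *Nqo1* higher in every shLmna library, with only a narrow gap between the groups for *Nqo1* (log2 fold change 1.03). *Nfe2l2*, *Gclc* and *Gclm* overlap between groups.

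Of a further list of 117 genes of the same systems, 86 had counts and 80 were tested, of which 20 were called (25.0%, 13 higher and 7 lower, beside 13.7% of all genes; 10 without shControl replicate 2). Of these 20, *Nqo2* and *Slc39a10* passed the filter on low counts only through shLmna and *Ggt1* only through shControl, in each case the group where it was high, so the count is no support for a difference of the list. Of its 20 tested NRF2 targets, 2 rose and 1 fell, and the median of all 80 was -0.028. *Hmox1*, the heme oxygenase gene, fell. *Hmox1* had normalized counts of 1307, 1163 and 1203 in shControl and 552, 519 and 498 in shLmna, 2.34-fold lower (log2 fold change -1.23, standard error 0.13, adjusted p = 3.27e-05), with no overlap. *Sqstm1*, whose product p62 binds KEAP1, fell from 3227 ± 295 (SD, n = 3) to 1593 ± 141 (SD, n = 3) (log2 fold change -1.02, standard error 0.14, adjusted p = 0.000237), and its counted end overlaps *Mrnip* on the other strand. *Txnip*, whose product inhibits thioredoxin, fell. *Txnip* had normalized counts of 37.0, 36.5 and 29.0 in shControl and 11.2, 13.7 and 17.2 in shLmna (log2 fold change -1.32, standard error 0.29, adjusted p = 0.00839), a call lost without shControl replicate 2 (-1.27, adjusted p = 0.0566). *Slc3a2*, the heavy chain of the cystine transporter, fell from 2181 ± 109 (SD, n = 3) to 1474 ± 93.9 (SD, n = 3) (log2 fold change -0.56, standard error 0.13, adjusted p = 0.0105), and 12.8% of its words occur in other genes. *Mafk*, a small MAF partner of NRF2, fell from 68.7 ± 9.19 (SD, n = 3) to 33.0 ± 11.4 (SD, n = 3) (log2 fold change -1.07, standard error 0.26, adjusted p = 0.0133), and was not called without shControl replicate 2 (-0.97, adjusted p = 0.0915), shLmna replicate 2 (-0.81, adjusted p = 0.0626) or shLmna replicate 3 (-1.09, adjusted p = 0.0553).

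Among the genes of that list that rose, *Ephx1*, the microsomal epoxide hydrolase gene, went from 59.4 ± 12.7 (SD, n = 3) to 199.7 ± 31.2 (SD, n = 3) (log2 fold change 1.74, standard error 0.20, adjusted p = 4.49e-05). *Idh1*, the cytosolic isocitrate dehydrogenase that makes NADPH, rose from 55.7 ± 5.54 (SD, n = 3) to 137 ± 1.42 (SD, n = 3) (log2 fold change 1.30, standard error 0.18, adjusted p = 0.000238). The counted end of *Idh1* has 36.7% GC. Its log2 fold change was 0.98 to 1.40 over all 16 alternatives, each of which called it, and 1.22 to 1.35 without 1 library. The transferase gene *Gstm2* rose from 16.7 ± 2.69 (SD, n = 3) to 53.8 ± 6.76 (SD, n = 3) (log2 fold change 1.72, standard error 0.26, adjusted p = 0.000504), with 9.99% of its words found in other genes. *Mt3*, another metallothionein gene, rose from 22.1 ± 0.599 (SD, n = 3) to 57.5 ± 8.94 (SD, n = 3) (log2 fold change 1.38, standard error 0.24, adjusted p = 0.00149), the opposite direction to the values of *Mt1* and *Mt2*. *Nqo2*, a quinone reductase gene, had 1, 0 and 0 UMIs in shControl and 12, 11 and 20 in shLmna, at least 5.17-fold higher against a floor of 3 UMIs per library. It passed the filter on low counts only through shLmna, the group where it was high, so its call is a description.

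**Figure D4:**
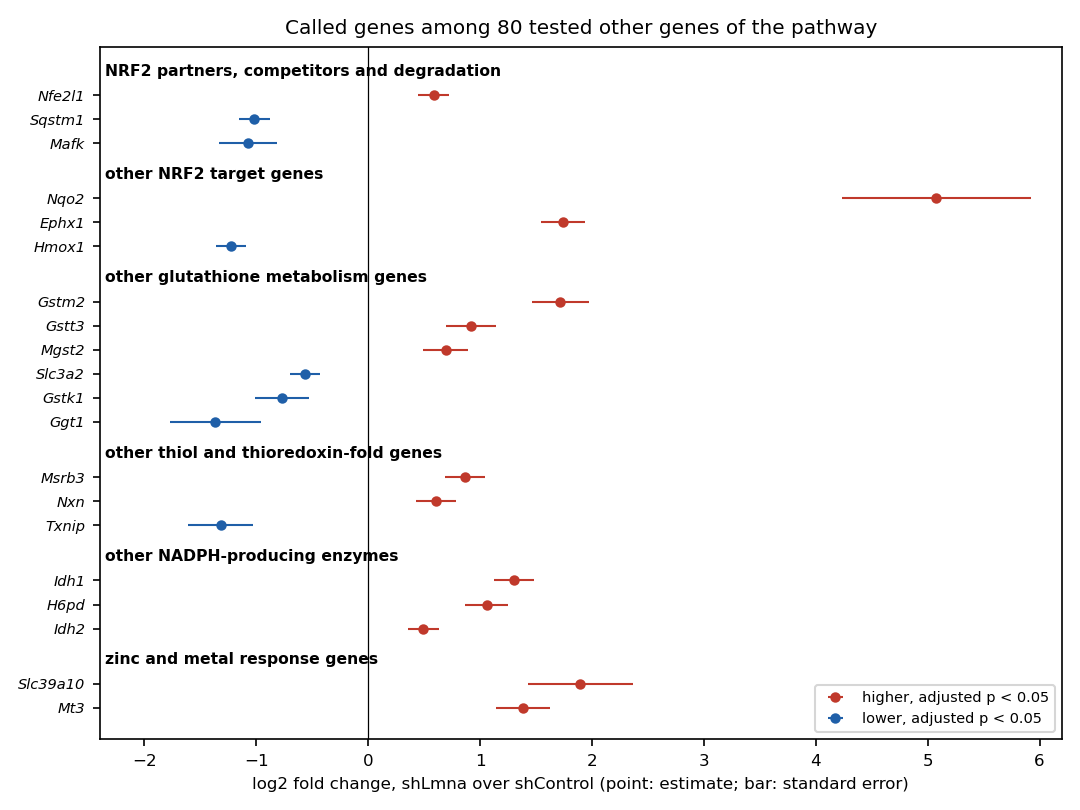
Log2 fold change, shLmna over shControl (x axis, points with standard errors), of the 20 called genes among 80 other tested genes of the NRF2, glutathione, thiol, NADPH and metal response lists. There are 13 higher (red) and 7 lower (blue), and the position of *Nqo2* depends on the prior count because shControl had almost no UMIs. *Nqo2*, *Slc39a10* and *Ggt1* passed the filter on low counts through 1 group alone.

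The calls fell into steady and unsteady ones. *Gsta4*, *Akr1b8*, *Osgin1* and *Srxn1* were called in all 16 alternative analyses, and all 8 called genes kept their direction in every alternative that tested them.

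**Figure D5:**
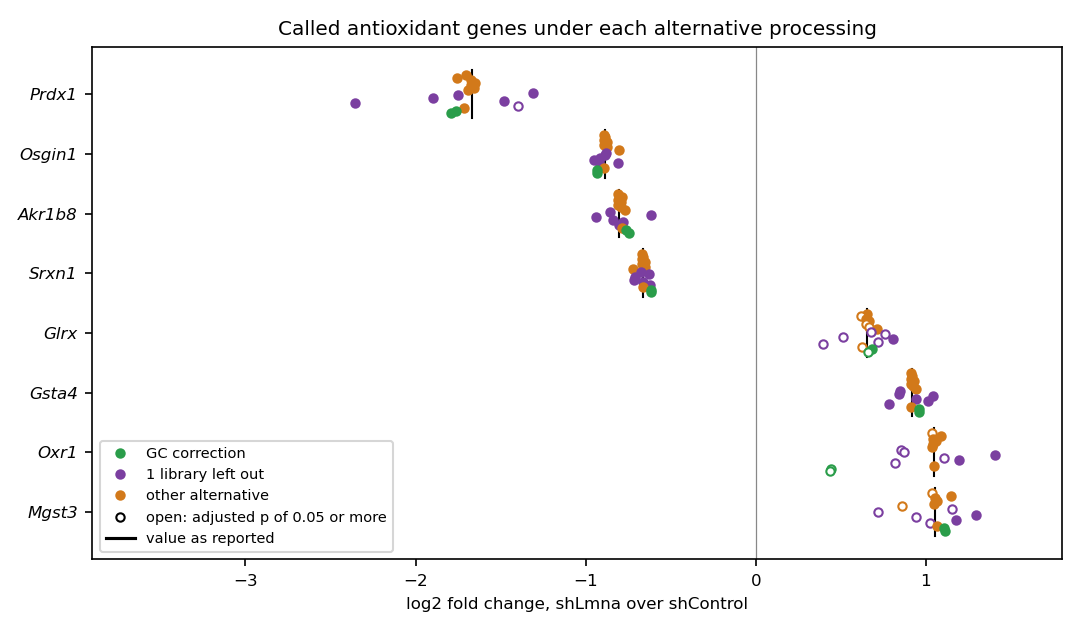
Log2 fold change, shLmna over shControl (x axis), of the 8 called antioxidant genes as reported (black line) and under each alternative (points, coloured by kind; open where the adjusted p was 0.05 or more). *Oxr1* moves from 1.05 to 0.44 under GC correction and *Prdx1* spreads most when 1 library is left out.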

How the data were processed

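Mouse E0771 cells were profiled in 3 shControl and 3 shLmna MARS-seq libraries, grouped by their labels. The authors deposited raw UMI counts: reads were trimmed with cutadapt, aligned to mm10 with STAR 2.4.2a, and counted with HTSeq in a window that took in the 3′-most 1000 bases of a RefSeq gene plus 100 bases beyond it. The counts were whole numbers, not normalized, of 1846208 to 3242051 per library. The authors' ComBat-corrected log2 values and their DESeq2 comparison (fold changes and p-values) were not used. The study's methods describe a removal of batch effects with ComBat, whose output served for plots. They do not say which libraries formed a batch, and the main fit here corrected for none. Counts were tested with edgeR 4.0.16 (R 4.3.3), with TMM factors, filterByExpr at a minimum count of 10, the quasi-likelihood test without covariates and Benjamini-Hochberg adjustment over 8969 genes. The standard error is the absolute log2 fold change over the square root of F. DESeq2 1.42.0, limma-voom (limma 3.58.1), RLE and upper-quartile factors, other filters, thinning, GC correction (loess, span 0.3, on the last 1000 bases of GENCODE transcripts), a replicate block and leaving out each library were alternatives. The script was tested on simulated data. Replicate pairs differed by more than sampling noise (chi-square per degree of freedom 5.11 to 8.28).

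The genes and lists were chosen with earlier results of these data known. Named with values per library were all called members and a fixed set of regulators, peroxiredoxins and NRF2 readouts, and of the further list the 5 genes with the smallest p in each direction. Marker levels are summed normalized counts. Gene coordinates are those of GENCODE M21, and words shared between genes are exact 50-base matches among transcripts.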

Additional observations from a re-analysis of the deposited data

How the results depend on the processing

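All 8 called antioxidant genes kept their direction in every alternative that tested them (*Mgst3* and *Oxr1* were not tested at a mean count of at least 50), and 4 of them (*Gsta4*, *Akr1b8*, *Osgin1* and *Srxn1*) kept the call in all 16. Restricting the test to genes with a mean count of at least 50 left 779 called genes (425 higher), 5 called antioxidant genes (1 higher), 1 of these by the study's criteria, and 13 called genes of the further list (4 lower). DESeq2 gave 2 higher antioxidant genes and 1 by the study's criteria, and GC correction gave 7 lower, for 12 in all, while all genes called became 1503, of which 774 lower. Leaving out 1 library at a time, all genes called ranged from 540 (without shControl replicate 2) to 1580 (without shControl replicate 3), of which 353 to 882 higher and 187 to 698 lower. Antioxidant genes called ranged from 5 to 14, of which 1 to 7 higher and 3 to 7 lower, and those by the study's criteria from 0 (without shLmna replicate 3) to 5. Of the further list, 10 to 25 were called, 7 to 15 higher and 3 to 10 lower. Gstp1 reversed to -0.13 with DESeq2 and to -0.060 with libraries thinned to the smallest. With 1 library left out, the log2 fold change of Gstp1 ranged from -0.72 to 0.89, Nfe2l2 from -0.024 to 0.71, Prdx3 from -0.15 to 0.29, Txnrd2 from -0.17 to 0.013, Gpx4 from -0.17 to 0.38, Pgd from -0.23 to 0.032 and Me1 from -0.11 to 0.20. Where no value above shows a cause, the cause was not tested.

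The labels do not say whether the replicate numbers pair the libraries. Deviations of same-numbered libraries correlated at 0.35, -0.12 and 0.0052 for replicates 1, 2 and 3, which does not settle it. The fit with the replicate block called 1350 genes, 9 antioxidant genes and 23 genes of the further list. *Glrx* lost its call there (0.62, adjusted p = 0.0583) and *Nqo1* (1.01, adjusted p = 0.0353) and *Cat* (-0.63, adjusted p = 0.0498) gained one. The filter on low counts left out *Mgst1*, *Gstt2* and *Glrx2*. With no filter all 45 measured members were tested and none of these 3 was called, and low counts also leave *Mgst3* and *Oxr1* with little precision.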
